A study of Mus musculus with 8 samples.

Results

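The comparison sets Large against Small hematopoietic stem cells (HSCs) of the mouse and rests on 4 of the 8 libraries of the series, 2 of Large and 2 of Small HSCs. The libraries were chosen by the size class in the sample titles and paired by the replicate number in the same titles, Large 1 with Small 1 and Large 2 with Small 2, and the genes described are those that agree in both pairs. All cells came from marrow of C57BL/6J mice. Lineage-positive cells had been removed, and the stain covered Sca-1, CD117, CD150 and CD48. The labels name no mutant allele or treatment and give no age. Large HSCs were the top 10% of the preparation by forward and side scatter, and Small HSCs the bottom 10%. Medium HSCs, shown beside them, had a size no further than 10% from the average. All HSCs had no size gate. Each library was made from 10000 cells in G0/1 with a low-input RNA kit. Whether libraries 1 and 2 of a group are from different animals is not stated. The p-values therefore rest on the spread between libraries, and that spread may be technical.

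HSCs sustain blood production for life and spend most of their time outside the cell cycle. A stem cell that leaves rest first builds ribosomes, mitochondria and proteins, then loads helicases onto replication origins, copies its DNA and divides. E2F transcription factors drive the genes of origin loading and DNA synthesis, while a repressor complex that reads the CHR promoter element keeps the genes of mitosis low in resting cells.

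Total counts were 15138852 and 15585024 in Large 1 and 2, against 15896952 and 13698362 in Small 1 and 2, and 16066 of 50686 genes had enough counts to test. Values are CPM (counts scaled to a common library size with TMM factors), so they are shares of a library and not amounts per cell. In bulk RNA, fewer cells of a kind and less RNA per cell cannot be told apart. Before size, the libraries differed by replicate number: the first principal component (39.5% of the variance) placed Large 1 at -81.2 and Small 1 at -64.4, against 0.984 for Large 2 and 56.6 for Small 2. RNA of the sort antigens is set beside the HSC label here, and further markers of HSCs and of other blood cells are given below. Purity of the sorted cells was not tested. Kit, which encodes CD117, had 513 and 699 CPM in Large 1 and 2, against 852 and 1196 CPM in Small 1 and 2, both Large libraries below both Small. For Ly6a, the gene of Sca-1, values were 20.4 and 186 CPM in Large and 45.7 and 288 CPM in Small, and the difference between the numbers exceeded the one between the sizes. Slamf1, which encodes CD150, was at 7.58 and 11.4 CPM in Large and 10.8 and 8.71 CPM in Small, with overlap. Cd48, whose protein marks progenitors and is low on HSCs, was detected in all 4 libraries, at 159 and 105 CPM in Large and 136 and 62.7 CPM in Small.

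Many genes differed in the same direction in both pairs, but none passed the test that treats the 2 libraries of a group as replicates. Of the 16066 genes, 1010 (6.29%) were at least 1.5-fold higher in Large within both numbers and 1221 (7.60%) at least 1.5-fold lower. In the same direction at any size, 5292 genes (32.9%) were higher in Large within both numbers and 4972 (30.9%) lower. Both Large libraries lay above both Small libraries for 2849 genes (17.7%) and below them for 2369 (14.7%). With edgeR's quasi-likelihood test and Benjamini-Hochberg adjustment, 0 genes (0%) passed 0.05 (smallest adjusted p = 0.975), and 506 (3.15%) had an unadjusted p under 0.05, 285 higher (1.77%) and 221 lower (1.38%). With the replicate number as a block, edgeR again called 0 genes (smallest adjusted p = 0.0538), while 2791 had an unadjusted p under 0.05, 1516 higher and 1275 lower. DESeq2 called 12 genes without the block and 1439 with it, 752 higher and 687 lower. The split between higher and lower depends on the scale: of the genes past 1.5-fold in both numbers, 45.3% were higher on the CPM scale, 34.6% with a minimum count of 50 and 20.6% on the deposited log2(TPM + 1) scale, on which the median of all genes was -0.08 within number 1 and -0.14 within number 2, against 0.01 in both on the CPM scale.

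The pairs share no library, so each can be read in the other. Among genes with a mean of at least 5 CPM, 264 were past 2-fold higher in Large within number 1, and 198 of them (75%) were also higher within number 2, against 50.9% of all 10777 genes at that level. Of those 264 genes, 126 (47.7%) were past 1.5-fold in number 2, against 15.2% of all. In the other direction, 683 genes were past 2-fold lower in Large within number 1, and 525 (76.9%) were lower within number 2, against 49.1% of all. Chosen within number 2, 598 higher genes gave 440 (73.6%) that were higher within number 1, and 309 lower genes gave 266 (86.1%) that were lower. Over all 16066 genes, low ones included, the shares were smaller: 57.6% of 1363 higher and 62.3% of 1840 lower genes chosen within number 1 went the same way in number 2. Chosen within number 2, 59.6% of 1764 higher and 61.1% of 1307 lower genes did so in number 1, against 48.0% to 50.6% of all genes. Of the genes chosen without a minimum level, 22.8% to 24.1% were past 1.5-fold the opposite way in the other number.

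**Figure D1:**
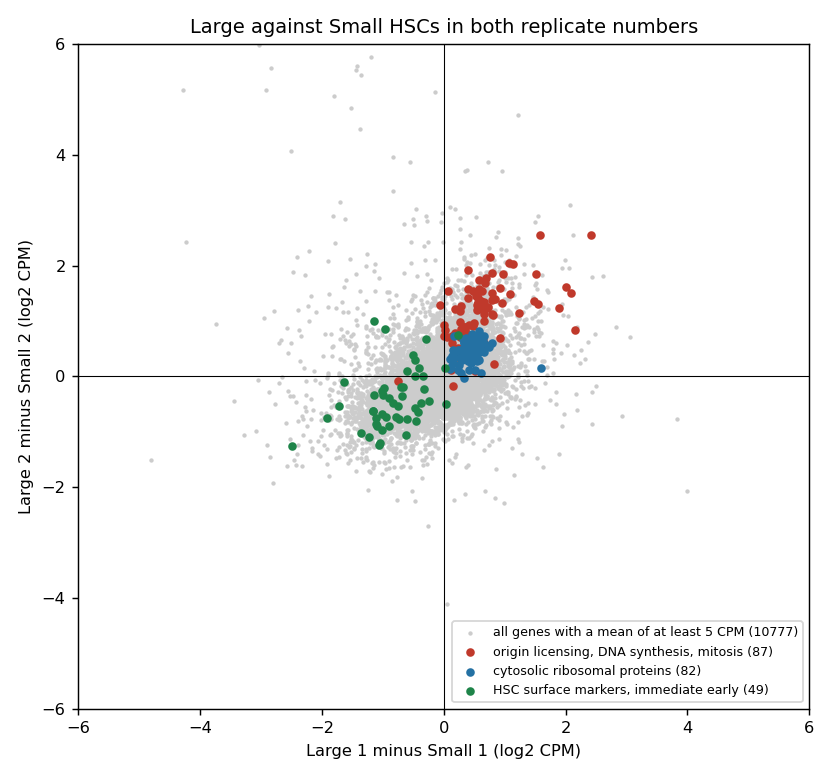
Each point is a gene with a mean of at least 5 CPM; the horizontal axis gives its log2 CPM in Large 1 minus Small 1 and the vertical axis Large 2 minus Small 2. Replication and mitosis genes (red) lie in the upper right, mostly further out along the vertical axis, ribosomal protein genes (blue) form a compact group near 0.42 and 0.47, and HSC surface and immediate early genes (green) lie mostly in the lower left.

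Genes of DNA replication and cell division were higher in Large than in Small HSCs within both numbers, in nearly every member of 4 lists, although the cells were sorted in G0/1. In the origin licensing list (the factors that load and start the replicative helicase), 22 of 23 genes were higher in Large within both numbers and 0 lower, against 32.9% and 30.9% of all genes tested, and the median difference was 0.54 in number 1 and 1.19 in number 2 (log2 CPM). Of the 30 genes of DNA synthesis, 29 were higher and 1 was lower, with medians of 0.56 and 0.95, and both Large libraries lay above both Small libraries for 27 of them, against 17.7% of all genes. In the mitosis list 33 of 34 genes were higher and 0 lower, with medians of 0.58 and 1.49. Of the 26 genes of nucleotide synthesis, 24 were higher and 0 lower, with medians of 0.44 and 0.63. Markers of granulocyte progenitors were higher in Large as well (7 of 7 genes), and their part in these values was not tested. The lists' summed levels show how far the numbers differ: mitosis genes summed to 5742 and 3731 CPM in Large 1 and 2, against 4038 and 1491 CPM in Small 1 and 2, so Large 2 was below Small 1 although both pairs had the same direction.

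Gins1, Cdc7 and Orc6 had the widest differences that held in both numbers among the licensing genes. Gins1, a subunit of the helicase's GINS complex, had 49.3 and 34.2 CPM in Large 1 and 2, against 25 and 9.43 CPM in Small 1 and 2, a 1.97-fold and 3.59-fold difference. Cdc7, the kinase that starts origins, had 167 and 106 CPM in Large and 86.5 and 42.1 CPM in Small. Orc6, a subunit of the origin recognition complex, had 132 and 77.8 CPM in Large and 74.0 and 29.5 CPM in Small. For these 3 genes the groups did not overlap. Among the polymerases, Pola1, the catalytic subunit of the polymerase that lays down primers, had 122 and 91.5 CPM in Large and 42.8 and 25.2 CPM in Small (fitted log2 difference 1.65, SE 0.59). Pole2, a subunit of the leading-strand polymerase, had 62.9 and 46.2 CPM in Large and 35.7 and 21.4 CPM in Small. Rif1, which sets the timing of origins and guards broken ends, had 56.7 and 43.1 CPM in Large and 15.1 and 18.1 CPM in Small (1.59, SE 0.35), with Medium at 75.7 and 41.9 CPM. Enzymes that make nucleotides went the same way: Tk1, the thymidine kinase of dividing cells, had 174 and 134 CPM in Large and 103 and 27.0 CPM in Small. Mthfd2, a mitochondrial enzyme of folate metabolism, had 58.7 and 44.1 CPM in Large and 35.0 and 10.9 CPM in Small.

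Promoters of the licensing and synthesis genes are shown because the members were higher together and several hold the E2F letters. The motif was searched as TTTCCCGC or TTTGGCGC on both strands, from 250 bases before to 50 after the start in RefSeq's table for GRCm38.p6, which matched 11007 of the 16066 tested genes. It stood in 44.4% of the licensing promoters and 24.0% of the DNA synthesis promoters, against 3.04% of all tested promoters. The lists were drawn up for replication genes, so these shares say nothing about Large against Small. The 3 shown, each 300 bases, run 5′ to 3′ with the motif, on either strand, in capitals: Pola1 (chrX:93632106-93632405, minus strand, motif at -138 from the start), Pole2 (chr12:69228141-69228440, minus strand) and Gins3, another GINS subunit (chr8:95633309-95633608, plus strand, motif at -41). Matches of different motifs were counted separately and may overlap.
Pola1: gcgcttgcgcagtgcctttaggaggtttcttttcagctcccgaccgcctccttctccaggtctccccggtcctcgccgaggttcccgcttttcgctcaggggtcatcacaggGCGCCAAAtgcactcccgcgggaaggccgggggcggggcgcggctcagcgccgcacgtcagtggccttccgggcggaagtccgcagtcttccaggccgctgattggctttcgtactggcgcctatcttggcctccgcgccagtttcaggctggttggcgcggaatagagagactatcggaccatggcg
Pole2: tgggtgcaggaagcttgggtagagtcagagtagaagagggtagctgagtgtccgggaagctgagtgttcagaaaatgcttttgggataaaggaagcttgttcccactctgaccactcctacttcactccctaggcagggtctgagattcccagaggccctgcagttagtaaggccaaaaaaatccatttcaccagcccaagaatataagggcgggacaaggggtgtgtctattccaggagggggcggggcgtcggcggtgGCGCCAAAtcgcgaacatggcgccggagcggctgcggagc
Gins3: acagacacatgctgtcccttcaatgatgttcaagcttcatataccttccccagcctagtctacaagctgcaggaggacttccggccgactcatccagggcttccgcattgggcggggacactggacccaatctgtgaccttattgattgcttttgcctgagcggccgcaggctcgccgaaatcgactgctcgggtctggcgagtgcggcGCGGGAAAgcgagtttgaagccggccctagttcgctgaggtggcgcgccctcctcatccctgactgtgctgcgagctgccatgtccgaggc
Gins3 had 32.0 and 26.6 CPM in Large 1 and 2, against 20.2 and 10.4 CPM in Small 1 and 2, and the groups did not overlap.

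Of the 15 genes ranked highest in Large, 3 (Cenpe, Smc2 and Cenpf) are in the mitosis list and 1 (Pola1) is in the DNA synthesis list. Among the 15 genes that the naming rule put highest in Large, Cenpe, Knl1 and Cenpf act at the kinetochore, Smc2 belongs to condensin, Esco2 acetylates cohesin, Kif14 is a kinesin of cytokinesis and Cntln a centrosome protein. Cenpe, the kinesin that draws chromosomes to the spindle's middle, had 29.0 and 10.3 CPM in Large 1 and 2, against 5.32 and 1.64 CPM in Small 1 and 2, 5.35-fold and 5.9-fold higher. Knl1, the kinetochore scaffold, had 37.5 and 17.4 CPM in Large and 8.56 and 2.86 CPM in Small. Smc2 had 116 and 59.4 CPM in Large and 28.8 and 19.4 CPM in Small (fitted log2 difference 1.87, SE 0.61). Esco2 had 31.7 and 19.8 CPM in Large and 7.46 and 2.21 CPM in Small, the widest gap within number 2 of the 15, at 8.5-fold. The Large libraries lay above the Small ones for each of the 15, as the rule requires. Also among them were Pola1, Rev3l, the catalytic subunit of a translesion polymerase, Aunip, a partner of Aurora A, the actin-binding Ccdc88a, and Slfn9, Nsg1 and Zfp772, which ranged from 0.714 CPM (Zfp772 in Small 2) to 20.7 CPM (Slfn9 in Large 1).

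The list values and the leading genes differed in where Medium HSCs stood. Over the mitosis list the median of Medium minus Small was -0.20 in number 1 and 0.17 in number 2, and over the licensing list it was -0.07 and -0.03, so Medium lay close to Small. For Cenpe, Medium had 25.5 and 9.11 CPM, nearer to Large than to Small. For Smc2, Medium had 101 and 38.3 CPM, nearer to Large in number 1 and about midway in number 2. In Rif1 (above), Tpr and Ccdc88a, Medium was close to or above Large, with 24.6 and 13.1 CPM of Ccdc88a in Medium, against 12.5 and 9.27 CPM in Large and 3.76 and 3.07 CPM in Small. For Tk1 Medium had 97.3 and 56.5 CPM, below Small 1 (103 CPM) but between Small 2 (27.0 CPM) and Large 2 (134 CPM). For Orc6 Medium had 84.0 and 28.6 CPM, close to the 74.0 and 29.5 CPM of Small 1 and 2.

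Mitotic promoters are shown because the CHR letters and CCAAT boxes stood in most of them. TTTGAA (CHR), searched on both strands, stood in 79.3% of the mitosis promoters against 12.4% of all tested promoters, and CCAAT in 79.3% against 38.8%. The list was drawn up for mitosis genes, so these shares say nothing about Large against Small. The capitals mark both motifs in Smc2 (chr4:52438971-52439270, plus strand), Cenpf (chr1:189688037-189688336, minus strand) and Aspm, a spindle pole protein (chr1:139454523-139454822, plus strand), on the same build and window as above.
Smc2: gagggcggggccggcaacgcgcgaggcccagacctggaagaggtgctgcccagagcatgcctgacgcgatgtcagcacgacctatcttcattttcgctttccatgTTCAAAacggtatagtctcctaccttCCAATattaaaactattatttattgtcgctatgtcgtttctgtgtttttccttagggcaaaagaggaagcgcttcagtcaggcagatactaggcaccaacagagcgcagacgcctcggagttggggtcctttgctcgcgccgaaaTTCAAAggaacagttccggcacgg
Cenpf: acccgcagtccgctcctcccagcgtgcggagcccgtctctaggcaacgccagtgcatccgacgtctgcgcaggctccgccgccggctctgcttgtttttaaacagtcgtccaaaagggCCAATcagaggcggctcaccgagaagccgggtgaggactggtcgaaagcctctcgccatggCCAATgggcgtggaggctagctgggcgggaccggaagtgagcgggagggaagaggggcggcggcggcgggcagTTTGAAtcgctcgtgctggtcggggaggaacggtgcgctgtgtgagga
Aspm: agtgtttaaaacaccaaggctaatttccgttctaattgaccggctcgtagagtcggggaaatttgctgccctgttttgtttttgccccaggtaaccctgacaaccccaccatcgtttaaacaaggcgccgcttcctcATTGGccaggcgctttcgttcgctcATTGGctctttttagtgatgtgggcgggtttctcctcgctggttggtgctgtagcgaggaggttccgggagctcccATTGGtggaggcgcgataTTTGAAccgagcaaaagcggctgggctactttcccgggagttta
In Cenpf and Aspm the CHR letters began 3 and 7 bases from the start, and in Smc2 they lay at -145 and at 27. Aspm had 46.4 and 20.0 CPM in Large 1 and 2, against 15.8 and 8.0 CPM in Small 1 and 2, without overlap.

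**Figure D2:**
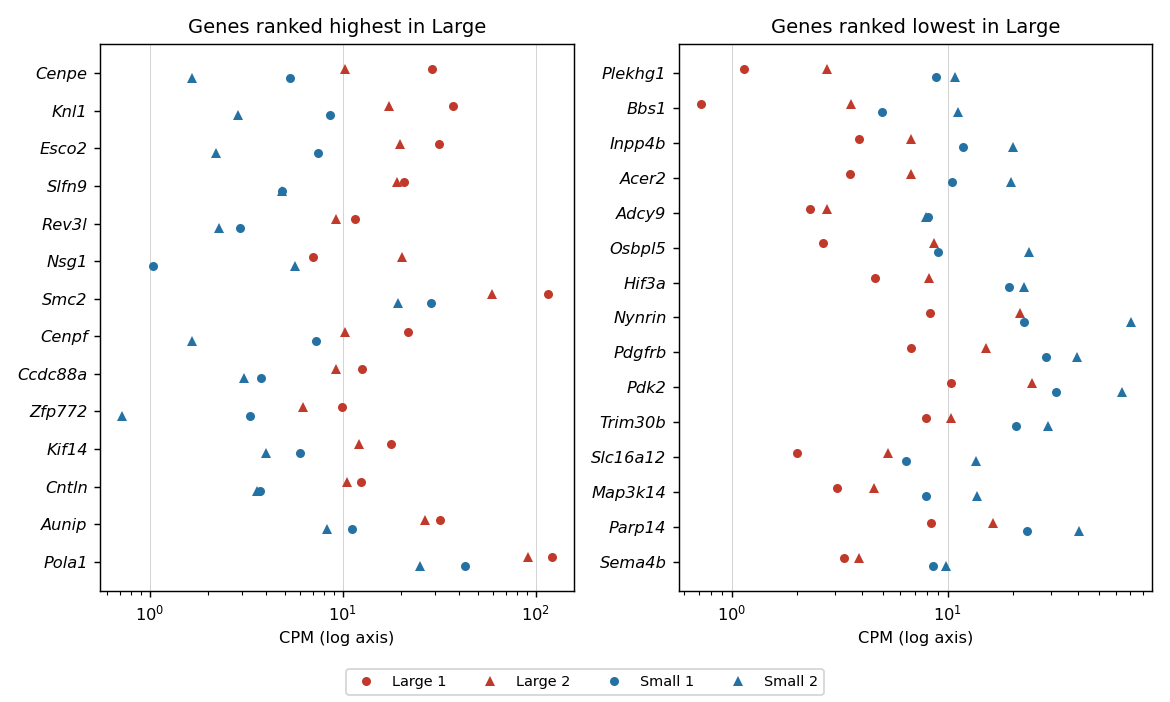
CPM (log axis) of 14 of the genes ranked highest and the 15 ranked lowest in Large by the naming rule; red points are Large and blue points Small libraries, circles number 1 and triangles number 2. In each row both red points lie on one side of both blue points, and for mitosis genes such as Cenpe (29.0 and 10.3 CPM in Large, 5.32 and 1.64 CPM in Small) the number 1 points lie to the right of the number 2 points.

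Regulators that decide between rest and entry into the cycle did not share one direction. Of 31 such genes tested, 10 were higher in Large within both numbers and 8 lower, near the 32.9% and 30.9% of all genes, and the list median was -0.17 in number 1 and 0.26 in number 2. At least 1.5-fold in both numbers, 3 were higher and 3 lower, against 6.29% and 7.60% of all genes. The naming rule took members of the higher direction only, so the 8 lower genes are not shown. Ccne2, a cyclin that starts S phase, had 77.2 and 40.0 CPM in Large 1 and 2, against 35.3 and 12.4 CPM in Small 1 and 2. E2f7, an E2F repressor, had 30.5 and 31.4 CPM in Large and 18.6 and 10.6 CPM in Small. Ccne1, the other E-type cyclin, had 107 and 29.5 CPM in Large and 66.5 and 13.3 CPM in Small, so its groups overlapped. The cyclin-dependent kinase inhibitors Cdkn1a and Cdkn1b each had opposite signs in the 2 numbers, with 44.4 and 137 CPM of Cdkn1a in Large and 56.7 and 129 CPM in Small, and 15.2 and 22.2 CPM of Cdkn1b in Large and 13.7 and 28.8 CPM in Small.

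Genes for making proteins were higher in Large, by a smaller and more even amount than those of replication. Cytosolic ribosomal protein genes were higher within both numbers for 83 of 84 tested, with medians of 0.42 and 0.47. Both Large libraries lay above both Small libraries for 77 of them, against 17.7% of all genes. The list summed to 30558 and 27157 CPM in Large 1 and 2, against 23484 and 20564 CPM in Small 1 and 2, without overlap. Only 5 of the 84 reached 1.5-fold in both numbers, close to the 6.29% of all genes. Rplp1, of the ribosomal stalk, had 307 and 254 CPM in Large and 197 and 163 CPM in Small, 1.56-fold in both numbers. Rps21 had 86.2 and 62.5 CPM in Large and 54.8 and 37.6 CPM in Small. Fau, which encodes a ribosomal protein fused to a ubiquitin-like peptide, had 46.2 and 30.4 CPM in Large and 26.7 and 19.9 CPM in Small. Ribosomal protein genes have near-identical copies elsewhere in the genome, so the estimated counts of single members are uncertain. Medium HSCs were as high as Large or higher here, with 31291 and 31091 CPM summed over the list and medians above Small of 0.48 and 0.66.

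Mitochondrial ribosomal protein genes were higher in Large for 76 of 78 (medians 0.36 and 0.57) and lower for 0. Mrpl20 had 142 and 82.6 CPM in Large 1 and 2, against 81.5 and 41.6 CPM in Small 1 and 2. Of 34 genes of ribosome biogenesis 30 were higher and 2 lower, with medians of 0.28 in both numbers. Dkc1, the pseudouridine synthase of ribosomal RNA, had 295 and 201 CPM in Large and 152 and 115 CPM in Small (fitted log2 difference 0.90, SE 0.34). The nucleolar chaperone Npm1 had 959 and 635 CPM in Large and 529 and 405 CPM in Small, and the snoRNP protein Nop58 had 244 and 208 CPM in Large and 131 and 143 CPM in Small. None of the 3 had overlapping groups.

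Initiation factors were higher for 33 of 48 and lower for 5, with Eif5b, which joins the ribosomal subunits, at 38.0 and 18.9 CPM in Large and 13.0 and 9.43 CPM in Small. Eif2s2, a subunit of the factor that brings the first tRNA, had 109 and 76.0 CPM in Large and 60.5 and 49.0 CPM in Small. Among genes of tRNA charging, 21 of 24 were higher and 2 lower, with medians of 0.36 and 0.30. Hars and Nars, the histidine and asparagine enzymes, had overlapping groups: Hars had 181 and 126 CPM in Large and 128 and 77.7 CPM in Small.

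Chaperone, proteasome, spliceosome and nuclear transport genes were mostly higher in Large, whereas lysosome and stress-response lists were mixed. Chaperonin and prefoldin genes were higher in Large for 12 of 14 and lower for 0, and Cct8, a chaperonin subunit, had 1125 and 738 CPM in Large 1 and 2, against 763 and 535 CPM in Small 1 and 2. Of 25 heat shock genes 16 were higher and 3 lower. Hsp90aa1, the inducible Hsp90, had 858 and 426 CPM in Large and 355 and 263 CPM in Small, without overlap. Hspd1 and Hspe1, which fold proteins inside mitochondria, had 790.1 and 410.3 CPM and 271 and 141 CPM in Large, against 488 and 281 CPM and 175 and 70.3 CPM in Small. Proteasome genes were higher for 46 of 48 and lower for 0, with medians of 0.33 and 0.44. For 22 of the 48 the Large libraries lay above the Small ones without overlap, against 17.7% of all genes. Psma6, a core subunit, had 449.5 and 325 CPM in Large and 312 and 208 CPM in Small, and Psmd9, an assembly factor, had 76.3 and 62.2 CPM in Large and 53.2 and 37.1 CPM in Small. None of the 48 reached 1.5-fold in both numbers, against 6.29% of all genes higher and 7.60% lower.

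In the spliceosome list 48 of 64 genes were higher in Large and 7 lower. Snrpe, Snrpf and Snrpg, which form the ring around spliceosomal RNAs, led it, and Snrpe had 297 and 223 CPM in Large and 180.0 and 114 CPM in Small. For nuclear pore and transport genes, 35 of 50 were higher and 8 lower. Tpr, the basket protein of the pore, had 62.8 and 38.4 CPM in Large and 15.1 and 17.9 CPM in Small (1.62, SE 0.39), with Medium at 90.3 and 57.2 CPM. Nup107 had 263 and 166 CPM in Large and 161 and 72.7 CPM in Small, and Medium, at 143 and 73.5 CPM, lay with Small.

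**Figure D3:**
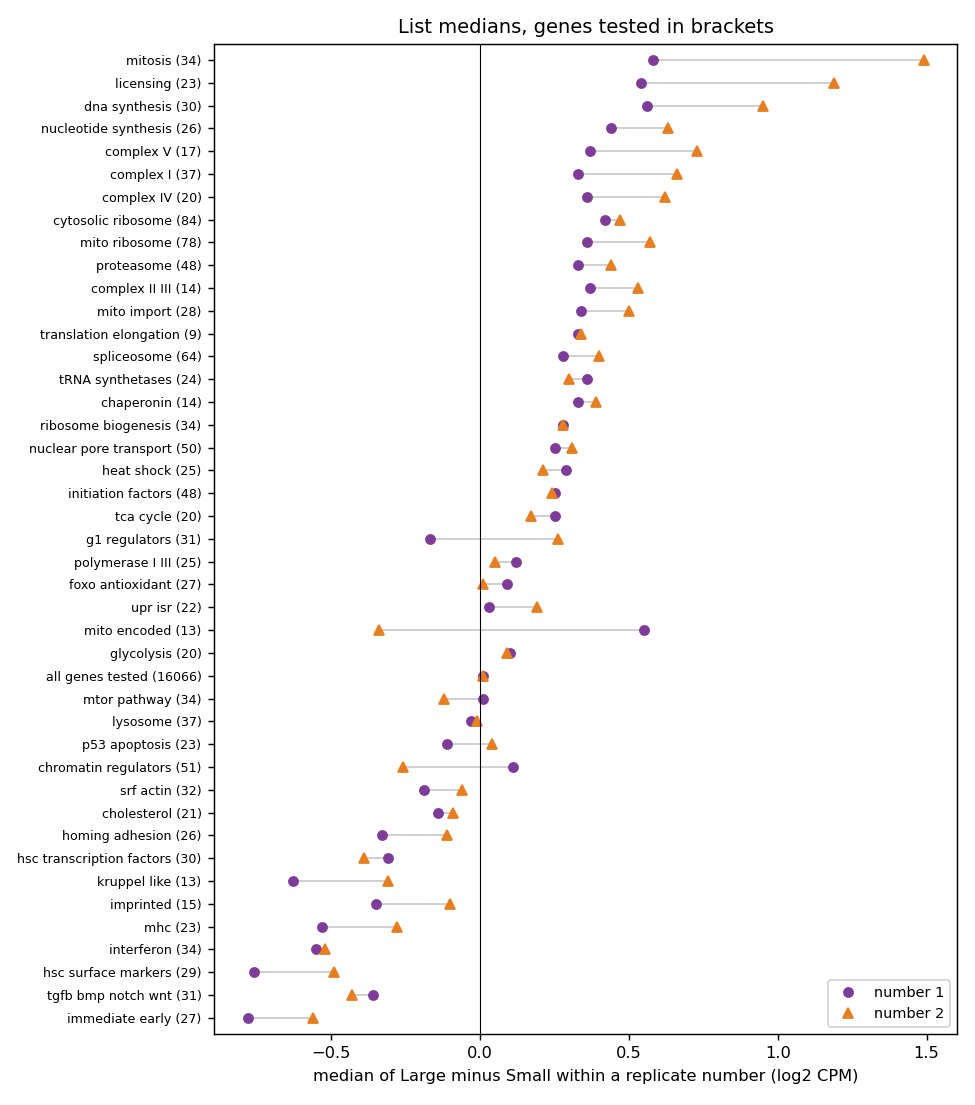
Median of Large minus Small (log2 CPM) over the tested genes of each list, within number 1 (purple circles) and within number 2 (orange triangles); the number of genes stands in brackets. Lists of other cell types are left out. Mitosis and licensing have the highest number 2 medians, at 1.49 and 1.19, immediate early genes lie furthest to the left, at -0.78 and -0.56, and all genes tested lie at 0.01 in both numbers.

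Nuclear genes of the respiratory chain were mostly higher in Large. All 37 tested genes of complex I and all 17 of the ATP synthase were higher within both numbers, as were 14 of 14 of complexes II and III and 17 of 20 of complex IV, where 1 was lower. Their medians were 0.33 to 0.37 in number 1 and 0.53 to 0.73 in number 2. For Medium minus Small the medians were -0.05 to 0.15 in number 1 and 0.32 to 0.6 in number 2, nearer to Large in number 2. The groups did not overlap for 8 of 37 complex I and 8 of 17 ATP synthase genes, against 17.7% of all genes. For complexes II and III this held for 1 of 14 genes, and for complex IV for 3 of 20. In Ndufb6 library 1 was above library 2 at both sizes, and it had 191 and 119.7 CPM in Large 1 and 2, against 125 and 62.6 CPM in Small 1 and 2. Atp5g3, of the ATP synthase rotor, had 447 and 327 CPM in Large and 255 and 179 CPM in Small, without overlap. Cox5a, of complex IV, had 335 and 217 CPM in Large and 223 and 117 CPM in Small. Genes of mitochondrial protein import were higher for 27 of 28, among them Tomm22, an outer membrane receptor, with 203 and 129.5 CPM in Large and 130.2 and 74.5 CPM in Small.

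Transcripts made inside the mitochondrion did not follow. Of the 13 mitochondrially encoded genes, 1 was higher within both numbers and 0 lower, with medians of 0.55 in number 1 and -0.34 in number 2. Their sum was 9123 and 7956 CPM in Large 1 and 2, against 6410 and 10341 CPM in Small 1 and 2, so Small held both the lowest and the highest library. The exception, mt-Nd6, lies on the other strand from its neighbours and is uncertain here, since the sources used here do not say whether counting used strand. It had 40.0 and 29.6 CPM in Large and 8.30 and 21.1 CPM in Small. Of 20 glycolysis genes 8 were higher and 6 lower, near the shares of all genes, and the list medians of 0.10 and 0.09 turn to -0.03 and -0.01 on the TPM scale. The glycolysis enzymes Tpi1 and Pgk1 showed no overlap between the groups. Tpi1 had 596 and 566 CPM in Large and 426 and 375 CPM in Small, and Pgk1 had 368 and 314 CPM in Large and 259 and 218 CPM in Small.

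**Figure D4:**
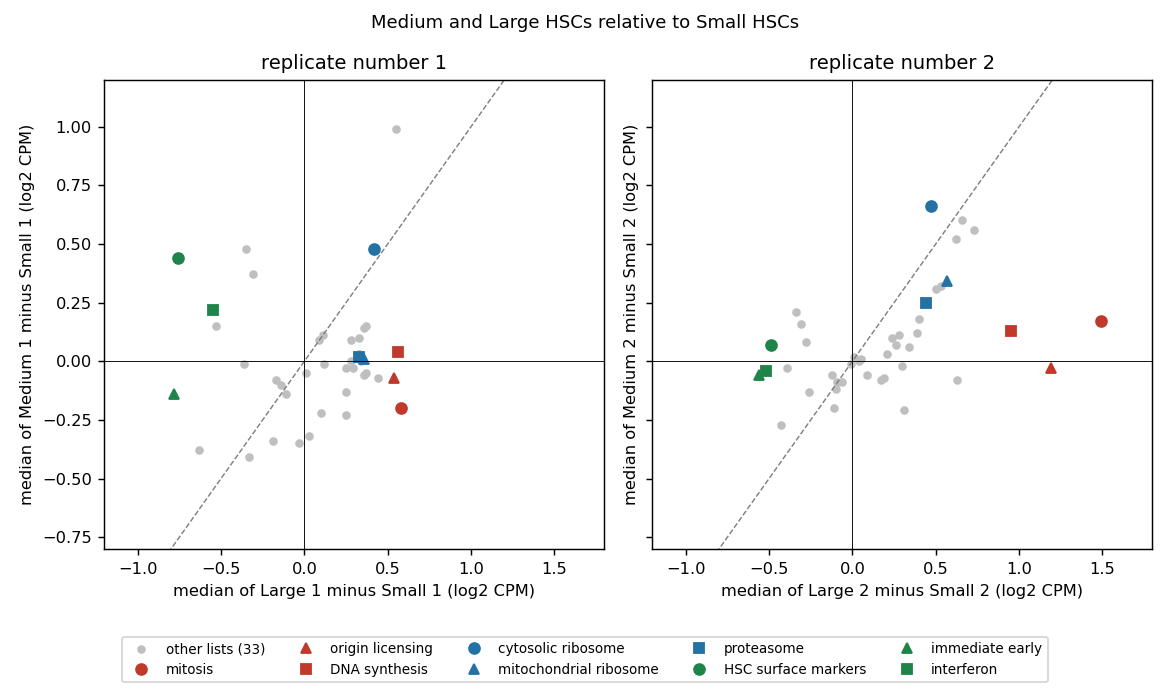
Each point is a gene list; the horizontal axis gives the median of Large minus Small and the vertical axis the median of Medium minus Small (log2 CPM), with number 1 on the left and number 2 on the right, and the dashed line marks equality. Ribosomal protein genes lie above the dashed line, at 0.48 against 0.42 and at 0.66 against 0.47, while mitosis and licensing lie far to the right and near 0 on the vertical axis.

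Most genes that mark HSCs were lower in Large within both numbers, but in most of them the groups overlapped. In the HSC surface and reporter list, 19 of 29 genes were lower within both numbers and 2 higher, against 30.9% and 32.9% of all genes, with medians of -0.76 and -0.49. Of these, 10 were at least 1.5-fold lower in both numbers, against 7.60% of all genes. Only 4 of the 29 were lower without overlap between the groups, no larger a share than the 14.7% of all genes. Medium was not lower than Small over this list, with medians of Medium minus Small of 0.44 and 0.07. The list also holds Cd48 and Flt3, which mark progenitors. Procr, which encodes the endothelial protein C receptor of HSCs, had 5.29 and 60.4 CPM in Large 1 and 2, against 30.3 and 145 CPM in Small 1 and 2, 5.62-fold and 2.4-fold lower. Fgd5, used as an HSC reporter gene, had 4.50 and 18.6 CPM in Large and 9.46 and 43.0 CPM in Small. Robo4, a receptor that helps anchor HSCs in marrow, had 4.00 and 26.2 CPM in Large and 8.49 and 61.7 CPM in Small. In each of these genes the groups overlapped, with number 2 above number 1 at both sizes. Tek, the angiopoietin receptor, had 17.4 and 35.3 CPM in Large and 37.9 and 63.8 CPM in Small, with no overlap. Flt3, present on multipotent progenitors, was lower in Large too, at 27.8 and 497 CPM against 62.8 and 763 CPM in Small.

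Of 30 HSC transcription factor genes, 17 were lower in Large within both numbers and 2 higher, with medians of -0.31 and -0.39. Only 5 of the 30 were lower without overlap between the groups, close to the 14.7% of all genes. Medium minus Small had medians of 0.37 and -0.03 over this list. Hlf, a leucine zipper factor of long-term HSCs, had 25.2 and 151 CPM in Large and 59.1 and 338 CPM in Small, 2.33-fold and 2.24-fold lower. Hoxa10 had 6.72 and 20.1 CPM in Large and 15.2 and 37.6 CPM in Small, and Prdm16, a regulator of HSC maintenance, had 6.65 and 15.9 CPM in Large and 12.6 and 26.7 CPM in Small. All 3 had overlapping groups. Gata2, singled out after its values were seen, had 82.8 and 109 CPM in Large and 248 and 179 CPM in Small, so its groups did not overlap (-1.15, SE 0.26). In the fit, which ignores the replicate number, leaving out Small 2 moved the surface list's median to -0.04, against -0.48 with it, and the transcription factor list's to 0.00, against -0.35. Number 1 alone, which does not use Small 2, gave the medians of -0.76 and -0.31 above.

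Receptors and mediators of niche signals were mostly lower in Large. TGF-β, BMP, Notch and Wnt genes were lower for 18 of 31 and higher for 4, and 7 were at least 1.5-fold lower in both numbers, against 7.60% of all genes. Tgfbr2, the TGF-β receptor that receives ligand, had 18.4 and 28.3 CPM in Large 1 and 2, against 34.9 and 68.4 CPM in Small 1 and 2 (-1.15, SE 0.41), and Notch2 had 35.0 and 65.0 CPM in Large and 77.3 and 131 CPM in Small (-1.06, SE 0.43). Neither had overlapping groups. Without Small 2 the list's median in the fit that ignores the number was 0.03, against -0.49 with it, while number 1 alone gave -0.36. Homing and adhesion genes were lower for 16 of 26 and higher for 3, though only 1 reached 1.5-fold in both numbers, a smaller share than the 7.60% of all genes. The first by rank was S1pr1, the sphingosine phosphate receptor of cell egress, with 12.9 and 45.9 CPM in Large and 41.9 and 95.7 CPM in Small. Itgav and Itgal, integrin chains, had 13.9 and 20.5 CPM and 57.5 and 72.9 CPM in Large, against 20.2 and 45.6 CPM and 101 and 100.2 CPM in Small.

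Immediate early genes, a fast transcriptional response to stimuli and to handling of cells, were lower in Large for 22 of 27 and higher for 0, with medians of -0.78 and -0.56. They summed to 5495 and 7743 CPM in Large and 10090 and 11797 CPM in Small, without overlap. Zfp36, which destabilises mRNA of inflammatory genes, had 380.1 and 166 CPM in Large and 771 and 325 CPM in Small, 2.03-fold and 1.95-fold lower. Nr4a1, an orphan nuclear receptor, had 475 and 2195 CPM in Large and 1012 and 4099.9 CPM in Small. Fosl2 had 11.8 and 55.6 CPM in Large and 27.7 and 118 CPM in Small. In all 3 the numbers differed more than the sizes, in opposite directions: Zfp36 was higher in number 1, Nr4a1 and Fosl2 in number 2. Of 13 Krüppel-like factor genes 9 were lower and 1 higher, and Klf2, a factor of resting lymphocytes, had 16.7 and 21.2 CPM in Large and 33.8 and 30.2 CPM in Small, without overlap.

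Interferon-response genes were lower in Large for 24 of 34 and higher for 5, with medians of -0.55 and -0.52, and 10 of them were at least 1.5-fold lower in both numbers, against 7.60% of all genes. Ifi44 had 6.43 and 23.3 CPM in Large 1 and 2, against 17.4 and 64.6 CPM in Small 1 and 2, and Ifit1, which binds viral RNA, had 0.786 and 6.25 CPM in Large and 4.93 and 17.9 CPM in Small. Parp14 had 8.36 and 16.2 CPM in Large and 23.3 and 40.3 CPM in Small, the only one of these 3 without overlap. Genes of antigen presentation were lower for 18 of 23 and higher for 3, but for 0 of the 23 did both Large libraries lie below both Small libraries. The class I gene H2-T23 had 111 and 234 CPM in Large and 195 and 356 CPM in Small, and Nlrc5, the activator of class I genes, had 21.5 and 70.6 CPM in Large and 36.9 and 100.3 CPM in Small. In the fit that ignores the number, the medians changed sign without Small 2, at 0.15 for interferon, against -0.42 with it, and at 0.14 for antigen presentation, against -0.40. Number 1 alone gave -0.55 and -0.53. Cd74, which B cells and dendritic cells also express at a high level, had 33.0 and 360.2 CPM in Large and 178 and 496 CPM in Small, while B cell markers summed to 739 and 7365 CPM in Large and 2937 and 1058 CPM in Small. Their part in the Cd74 values was not tested.

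In the actin and serum response factor list, Mrtfa differed most evenly between the numbers. Mrtfa, the actin-sensing coactivator of serum response factor, had 31.7 and 30.4 CPM in Large and 68.4 and 65.3 CPM in Small, 2.15-fold and 2.14-fold lower (fitted log2 difference -1.11, SE 0.21), and DESeq2 without the replicate block called it (adjusted p = 0.00217). Mrtfa varied little within a size, with an SD of 0.959 CPM in Large and 2.21 CPM in Small (n = 2 each). For Mrtfa Medium, at 32.2 and 34.5 CPM, lay with Large. Tln1, which ties integrins to actin, had 283 and 407 CPM in Large and 508 and 676 CPM in Small, and Medium, at 324 and 396 CPM, again lay with Large. The focal adhesion protein Zyx had 145 and 369 CPM in Large and 349.8 and 647 CPM in Small. Of the 32 genes 16 were lower in Large within both numbers and 6 higher, and for 11 both Large values were under both Small values, against 14.7% of all genes. The serum response element, searched by its standard letters on both strands, stood in 17.2% of the list's promoters against 1.32% of all tested promoters. The list was drawn up for actin and serum response factor genes, so this share says nothing about Large against Small. Among genes with a mean of at least 5 CPM, the element stood in 1.81% of those at least 1.5-fold lower in Large within both numbers. It stood in 0.965% of the higher ones and 1.23% of all. The promoter of Actg1, cytoplasmic actin gamma (chr11:120348446-120348745, minus strand, build as above), shows the element in capitals, at -90 from the start.
Actg1: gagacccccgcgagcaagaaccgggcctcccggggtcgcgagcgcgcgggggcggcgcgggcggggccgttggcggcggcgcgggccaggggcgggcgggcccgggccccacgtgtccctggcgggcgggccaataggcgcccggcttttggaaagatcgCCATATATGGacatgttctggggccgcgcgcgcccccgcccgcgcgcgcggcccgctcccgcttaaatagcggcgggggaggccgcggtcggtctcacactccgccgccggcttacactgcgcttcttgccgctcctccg
Actg1 itself had 1706 and 2063 CPM in Large and 2114 and 2357 CPM in Small, a smaller difference than in Mrtfa, and Srf had 32.3 and 31.5 CPM in Large and 38.4 and 32.0 CPM in Small.

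Growth signalling and lipid genes were mixed. In the PI3K and mTOR list, which includes the autophagy kinase Ulk1, 13 of 34 genes were lower in Large and 8 higher, not far from the shares of all genes, and the number 1 median of 0.01 was -0.13 on the TPM scale. Ulk1, the kinase that starts autophagy, had 17.4 and 40.8 CPM in Large 1 and 2, against 39.0 and 98 CPM in Small 1 and 2. Tsc2, which restrains mTOR, had 70.1 and 74.1 CPM in Large and 91.6 and 116 CPM in Small, and Pik3cd, the leukocyte PI3K catalytic subunit, had 98.6 and 127 CPM in Large and 157 and 179 CPM in Small, both without overlap. Cholesterol genes were lower for 9 of 21 and higher for 5. Srebf2, the activator of sterol synthesis, had 59.9 and 129 CPM in Large and 114 and 232 CPM in Small. Chromatin regulators were lower for 22 of 51 and higher for 12, with a median of 0.11 in number 1 (-0.05 on the TPM scale) and -0.26 in number 2. Ezh1, the Polycomb methyltransferase of resting cells, had 45.2 and 96.3 CPM in Large and 94.1 and 137 CPM in Small.

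The 15 genes that the rule put lowest in Large spread over many functions. Plekhg1 came first with 1.14 and 2.76 CPM in Large 1 and 2, against 8.82 and 10.8 CPM in Small 1 and 2, 7.02-fold and 3.77-fold lower (-2.32, SE 0.58), and DESeq2 without the block called it (adjusted p = 0.0492). Inpp4b, a phosphatase that limits PI3K signals, had 3.86 and 6.71 CPM in Large and 11.7 and 20.1 CPM in Small. Hif3a, of the hypoxia factor family, had 4.57 and 8.15 CPM in Large and 19.2 and 22.4 CPM in Small, and Medium, at 7.07 and 8.44 CPM, lay with Large. Pdk2, which holds pyruvate out of the mitochondrion's cycle, had 10.3 and 24.4 CPM in Large and 31.6 and 63.7 CPM in Small. Map3k14, the kinase of the noncanonical NF-κB pathway, had 3.07 and 4.54 CPM in Large and 7.91 and 13.6 CPM in Small. Also among them were Bbs1 of the ciliary BBSome, the ceramidase Acer2, the adenylyl cyclase Adcy9, the oxysterol-binding Osbpl5, Pdgfrb, a receptor of stromal cells, and Nynrin, Trim30b, Slc16a12, Parp14 and Sema4b. Pdgfrb had 6.72 and 15.0 CPM in Large and 28.4 and 39.8 CPM in Small, while the endothelial and stromal list had opposite medians, -0.67 in number 1 and 0.43 in number 2.

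Among markers of other blood cells, primary granule genes were higher in Large than in Small but not in Medium, and several other lists had opposite signs in the 2 numbers. All 7 primary granule genes, made by granulocyte progenitors, were higher in Large within both numbers (medians 0.77 and 1.10), and they summed to 29819.7 and 13156 CPM in Large 1 and 2, against 21506 and 6912 CPM in Small 1 and 2. Ctsg had 2194 and 747 CPM in Large and 1057 and 327 CPM in Small, Ms4a3 had 1154 and 383 CPM in Large and 620.1 and 179 CPM in Small, and in Medium these 2 genes had 693 and 306 CPM and 431 and 154 CPM. Over the list, Medium summed to 10716 and 5762 CPM, below Small in both numbers. Genes of mature granulocytes summed to 24715 and 16872 CPM in Large and 35289.8 and 11165 CPM in Small, with medians of -0.50 and 0.71. Erythroid genes summed to 5423 and 2226 CPM in Large and 4541 and 2082 CPM in Small, and 6 of 16 were higher and 1 lower. Megakaryocyte genes, which HSCs partly share, were lower in Large for 11 of 21 and higher for 0. Mast cell, basophil and eosinophil genes had medians of -1.43 and 1.55 and B cell genes of -1.27 and 2.43, with 1 of 14 and 0 of 21 higher within both numbers. T and NK cell genes were higher for 1 of 19 and lower for 6, macrophage and dendritic genes for 1 and 9 of 20, and endothelial and stromal genes for 3 and 6 of 18. T and NK cell genes summed to 993 and 462 CPM in Large and 678 and 304 CPM in Small, and macrophage and dendritic genes to 464 and 913 CPM in Large and 673 and 1137 CPM in Small. The part of these markers in the other results was not tested.

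The remaining lists are read against the 32.9% of all genes higher and 30.9% lower in Large within both numbers. Lysosome genes were higher in Large for 10 of 37 and lower for 15, unfolded protein and integrated stress genes for 10 and 8 of 22, p53 and apoptosis genes for 8 and 9 of 23, and FOXO and antioxidant genes for 13 and 11 of 27. RNA polymerase I and III genes were higher for 10 and lower for 7 of 25. Tricarboxylic acid cycle genes were higher for 15 of 20 and lower for 1, though their number 2 median of 0.17 became -0.05 on the TPM scale. Elongation factors were higher for 6 of 9 and lower for 1, and imprinted genes were lower for 9 of 15 and higher for 1.

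The genes that agreed in both numbers also differed in sequence composition, which the pairing did not use. Among genes with a mean of at least 5 CPM, the 417 at least 1.5-fold higher in Large had a median transcript length of 2508 bases and a median GC content of 46%. The 632 lower ones had a median length of 3884.5 bases and a GC content of 54%, and all 10777 had 3010 bases and 49.7%. Classes of GC content and length were formed over the protein-coding genes among these only. Across classes of GC content, the share of genes higher in Large was 6.95% below 42% GC and 1.3% above 58%, while the share lower was 2.13% and 11.9%. Across length, 7.45% of genes under 1 kb were higher and 0.909% lower, against 3.64% and 8.43% of genes over 8 kb. Among genes over 4 kb with at most 42% GC, 6.99% were higher and 2.15% lower. Medians of Medium minus Small were 0.15 and 0.53 under 1 kb, against 0.3 and 0.5 for Large minus Small. Over 8 kb they were 0.19 and -0.05, against 0.05 and -0.19. Above 58% GC they were -0.28 and -0.06, against -0.29 and -0.14. Ribosomal protein and respiratory genes are short, with list medians of 896.5 bases (cytosolic ribosome) and 971 bases (complex I), whereas mitosis genes had 3473.5 bases and 45.5% GC and HSC surface genes 3437 bases and 50.7% GC. The part of length and GC content in the list differences was not tested. In promoters, the E2F letters stood in 10.9% of the higher and 2.42% of the lower genes, against 3.35% of all at this level, CHR in 22.5% and 7.06%, against 12.0%, and CCAAT in 50.2% and 37.9%, against 39.8%. The NRF1 motif stood in 3.86% and 1.01%, against 2.29%. A match says only that the letters lie in the window.

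**Figure D5:**
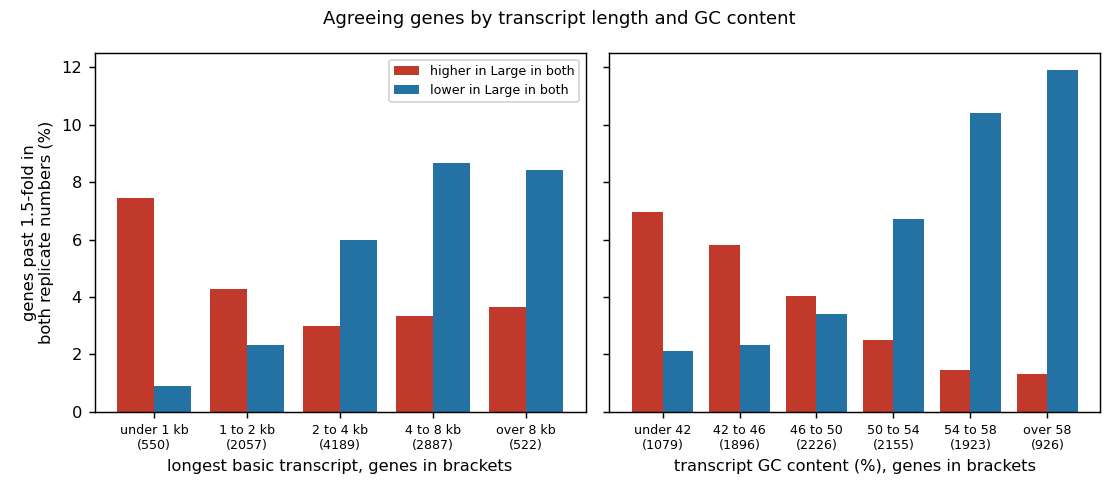
Share of protein-coding genes (%) at least 1.5-fold higher (red) or lower (blue) in Large within both numbers, by length of the longest basic transcript (left) and its GC content (right). The number of protein-coding genes with a mean of at least 5 CPM stands in brackets. Blue bars grow with GC content, to 11.9% above 58%, while red bars shrink to 1.3%.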

How the data were processed

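RNA was measured in 8 libraries of sorted mouse HSCs. Per the submitters' processing notes, the tools were STAR 2.5.3a, RSEM 1.3.0 and SAMtools 1.3 and the build mm10. The sources used here do not name the annotation release. Deposited by the authors were estimated counts per gene, already whole numbers and not scaled between libraries, and log2(TPM + 1) values. Gene symbols, lengths and GC content came from GENCODE M21 (GRCm38), promoters from RefSeq (GRCm38.p6). Near-identical and overlapping genes are uncertain. Intervals were not computed for counts; without molecular identifiers, reads may repeat a molecule.

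Large and Small were compared with edgeR 4.0.16 under R 4.3.3 by its quasi-likelihood test (robust, TMM, group only, all 8 libraries, minimum count 10), with p-values two-sided and adjusted by Benjamini-Hochberg over all genes tested, threshold 0.05. It was tested on simulated counts that had the same dispersion for every gene and no difference between replicate numbers. That simulation therefore does not cover the difference between numbers seen here. An exact test of 2 against 2 libraries cannot give a two-sided p under 0.333. Within-number differences are of log2 CPM (prior count 2). DESeq2 1.42.0 and limma 3.58.1 were alternatives, with other scalings, filters, prior counts and left-out libraries. The replicate numbers come from the titles; libraries of one number deviated together from their group means (correlations 0.358 to 0.439 over the 6 pairs of groups), so numbers were taken to pair the libraries.

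The compared libraries and the 51 gene lists were chosen with earlier results of these data known. Named were protein-coding genes with a mean of at least 5 CPM and both Large libraries on one side of both Small libraries, ranked by the smaller within-number difference, the first 15 each way (symbols of unnamed genes, pseudogenes and immunoglobulin segments left out); up to 3 members of each list with the same direction in both numbers, ranked likewise; and the sort antigens. Tek, Gata2, Flt3, Cdkn1a, Cdkn1b, Srf, Gins3, Aspm and Actg1 were chosen after their values were seen. Some genes the rule names are not reported here.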

Additional observations from a re-analysis of the deposited data

How the results depend on the processing

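No gene passed edgeR's quasi-likelihood test (Benjamini-Hochberg adjusted p under 0.05) with either scaling, with a minimum count of 50, with the 4 Large and Small libraries alone, or without any one library. Without a filter on low counts 55 genes passed (34 higher, 21 lower in Large) and 1344 had an unadjusted p under 0.05. DESeq2 called 12 genes, limma-trend on the deposited log2 TPM 1 and limma-voom 0. With the replicate number as a block, edgeR called 0 genes and 2791 had an unadjusted p under 0.05, while DESeq2 with the block called 1439, with 3017 unadjusted. Leaving out 1 library moved the number with an unadjusted p under 0.05 from 506 to between 151 (without Large 1) and 800 (without Small 1). The cause was not tested.

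Genes past 1.5-fold in both numbers were 317 higher on the deposited log2(TPM + 1) scale and 474 higher with a minimum count of 50 (1369 in all, with fewer genes tested). By construction, a 2-fold limit left 405 higher and 410 lower (815), no limit gave 5292 and 4972 (10264), and non-overlap in place of pairing gave 2849 and 2369 (5218). On the TPM scale 68.8% of the genes chosen as higher within number 2 were higher within number 1. Under the other scalings and prior counts these counts stayed within 1.5 times.

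Of 129 named genes, the fitted log2 difference changed sign in 15 when 1 library was left out, and in none under the block, the other scaling or the filters. Without 1 library the values ran from -0.46 to 2.36 for Ccne1, -0.04 to 1.16 for Slc16a1, -2.97 to 0.57 for Hlf, -4.05 to 0.11 for Procr, -3.13 to 0.83 for Robo4, -2.54 to 0.29 for Fgd5, -1.87 to 0.05 for Smad7, -2.63 to 0.28 for Fosl2, -2.43 to 0.40 for Nr4a1, -1.67 to 0.32 for Nlrc5, -3.35 to 0.14 for Cd74, -0.08 to 2.10 for Ms4a3, -0.37 to 0.21 for Slamf1, -3.03 to 1.18 for Ly6a and -0.04 to 1.08 for Cd48. Without 1 library the median of the mitosis list ran from 0.33 to 1.85, that of licensing from 0.44 to 1.24, that of cytosolic ribosomal proteins from 0.29 to 0.57 and that of immediate early genes from -1.01 to -0.50. Leaving out a library in this fit also changes the balance of replicate numbers between the groups. With 2 libraries a group, the test without the block has 4 residual degrees of freedom.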

Other observations

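Of the 12 genes that DESeq2 called without the replicate block, 6 were immunoglobulin segments or constant regions, most of them high in 1 library. Igkv14-126 had 0.286 and 624 CPM in Large 1 and 2 and 0 CPM in both Small libraries, and Igkv8-24 had 0 CPM in both Large libraries and 131 and 0 CPM in Small 1 and 2. Igkv12-89 had 25.7 and 27.9 CPM in Large and 0 CPM in both Small libraries. These segments resemble each other, so their estimated counts are uncertain, and they were chosen after their values were seen.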
